A study of Mus musculus with 41 samples.

Results

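The messenger RNA of Nf2 and the kinase core of the Hippo pathway was examined in mouse mesothelioma, a tumor of the mesothelial lining of the chest. The 10 genes were taken by name from the pathway (Nf2, Stk3, Stk4, Sav1, Lats1, Lats2, Mob1a, Mob1b, Yap1, and Wwtr1). No cutoff on their values was used, but earlier results of these data were known. Each gene has 1 row among the 27197 genes of the count table, and all 10 passed the filter on low counts that left 12376 genes to test. RNA sequencing was available for 3 BNC lines (JB81, JB91, and JB97; Bap1-/-;Nf2-/-;Cdkn2ab-/-), 3 NC lines (JB84, JB87, and JB93; Nf2-/-;Cdkn2ab-/-), and 9 tumors (5 BNC and 4 NC by the labels). The question the lines address is how mesothelioma cells with and without Bap1, a nuclear deubiquitinase, differ. Every sample carries the Nf2 and Cdkn2ab deletions, so no comparison here is against cells with intact Nf2, and no normal mesothelium was included.

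The tumors arose after intrathoracic injection of an adenovirus with Cre under the CMV promoter, which is not restricted to mesothelial cells, into cyclosporine-treated mice of mixed background. The Cdkn2ab allele lacks Ink4a and Ink4b in the germline and is conditional only for p19Arf. The lines are early-passage cultures of such tumors. The genotype of each tumor library was not given by its name, so the 9 tumors are described together.

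Merlin, the product of Nf2, sits below the plasma membrane and helps activate the Hippo kinases. MST2 and MST1 (Stk3 and Stk4) with the scaffold Salvador (Sav1) phosphorylate LATS1 and LATS2 and their MOB1 partners, and the LATS kinases then phosphorylate YAP and TAZ (Yap1 and Wwtr1), which keeps these coactivators out of the nucleus and away from the TEAD transcription factors. Loss of NF2 or LATS2 is a frequent lesion of human mesothelioma. Most of this control acts on proteins, by phosphorylation and degradation, which messenger RNA levels do not measure.

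The total count was between 12377675 and 23936922 in the lines and between 8158740 and 21851974 in the tumors. The members had between 607 and 7902 counts in each line. JB81 and JB91 were nearly identical, with 5 of 10511 genes differing over 2-fold and a biological coefficient of variation, the spread beyond counting noise, of 0.0386, and so were JB84 and JB93, with 8 of 10545 genes and a coefficient of 0.0578. The other pairs within a genotype had coefficients of 0.457 to 0.496. JB97 and JB87, of different genotypes, were closer to each other (0.402, with 1345 of 10404 genes over 2-fold) than either was to the other lines of its own genotype. Nothing in the labels says that the lines of a genotype came from separate mice, and p-values measure only the spread between these cultures. Results are therefore also given with each close pair summed, which leaves 2 samples against 2.

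As a check of genotype, Bap1 was lower in BNC lines, with 43.2, 44.1, and 38.0 CPM in JB81, JB91, and JB97 against 61.5, 60.6, and 64.3 CPM in JB84, JB87, and JB93 (CPM, counts scaled to library size, with TMM factors over the 6 lines). The difference was -0.57 on the log2 scale, with a standard error of 0.13 (edgeR, adjusted p = 0.039). Every BNC line was below every NC line, as in 21.4% of all genes tested, and 8.45% were lower at an adjusted p under 0.05. The conditional Bap1 allele loses only some of its exons, and counts per gene cannot show whether these were present, so this check is indirect. Markers of mesothelial cells were not present in every line. Wt1 was read at 72.9 to 127 CPM in every line (TMM over all 15 libraries, as are all marker values). Msln was at 0.212 CPM in JB81 and 0.428 CPM in JB91 and Krt18 at most at 0.0428 CPM in either, whereas JB97 had 227 CPM of Msln and 0.964 CPM of Krt18, and the NC lines had at least 835 CPM of Msln and at least 55.9 CPM of Krt18. The summed level of the 8 mesothelial markers was 130 to 676 CPM in BNC lines and 2140 to 3050 CPM in NC lines.

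The gene deleted in both genotypes was read in all lines. Nf2 (chromosome 11, 4765845 to 4849536, minus strand; all positions are on GRCm38, the mm10 build) had 88.3, 89.0, and 123 CPM in JB81, JB91, and JB97. The NC lines JB84, JB87, and JB93 had 100.3, 118.7, and 100.8 CPM, all within the range of the BNC lines. BNC lines differed from NC lines by -0.09 on the log2 scale, with a standard error of 0.18 (adjusted p = 0.734). Every adjusted p for the lines comes from the quasi-likelihood test of edgeR and is adjusted over all genes tested by the Benjamini-Hochberg method, unless DESeq2 is named. The conditional Nf2 allele that the methods cite is known to remove exon 2, which in the principal transcript of 16 exons is 126 of 4720 bases (chromosome 11, 4820368 to 4820493), or 2.67%. Counts per gene cannot show whether these bases were present, so the Nf2 row does not check the deletion. The exon holds codons 39 to 80 of 596 and its length is a multiple of 3. It is shown, 5′ to 3′ in the sense of the gene, because it is the stretch that separates a deleted from an intact transcript.

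Nf2 exon 2: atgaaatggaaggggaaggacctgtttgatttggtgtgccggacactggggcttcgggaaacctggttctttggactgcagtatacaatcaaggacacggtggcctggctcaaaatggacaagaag

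Of the 10 members, 0 differed between BNC and NC lines at an adjusted p under 0.01 and more than 2-fold change in edgeR, a threshold that 1.1% of all genes tested passed. At an unadjusted p under 0.05 it was 3 members, against 35.6% of all genes. DESeq2 placed 1 member past the stricter threshold, against 14.2% of all genes it tested. At an adjusted p under 0.05, edgeR called Lats2 as higher in BNC, where 5.78% of all genes were, and Stk4 as lower in BNC, where 8.45% were. The median log2 fold change of the members was -0.09 with a median standard error of 0.17, and that of all genes tested was 0.00. The 2 called genes both encode kinases, 1 at the MST step and 1 at the LATS step.

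**Figure D1:**
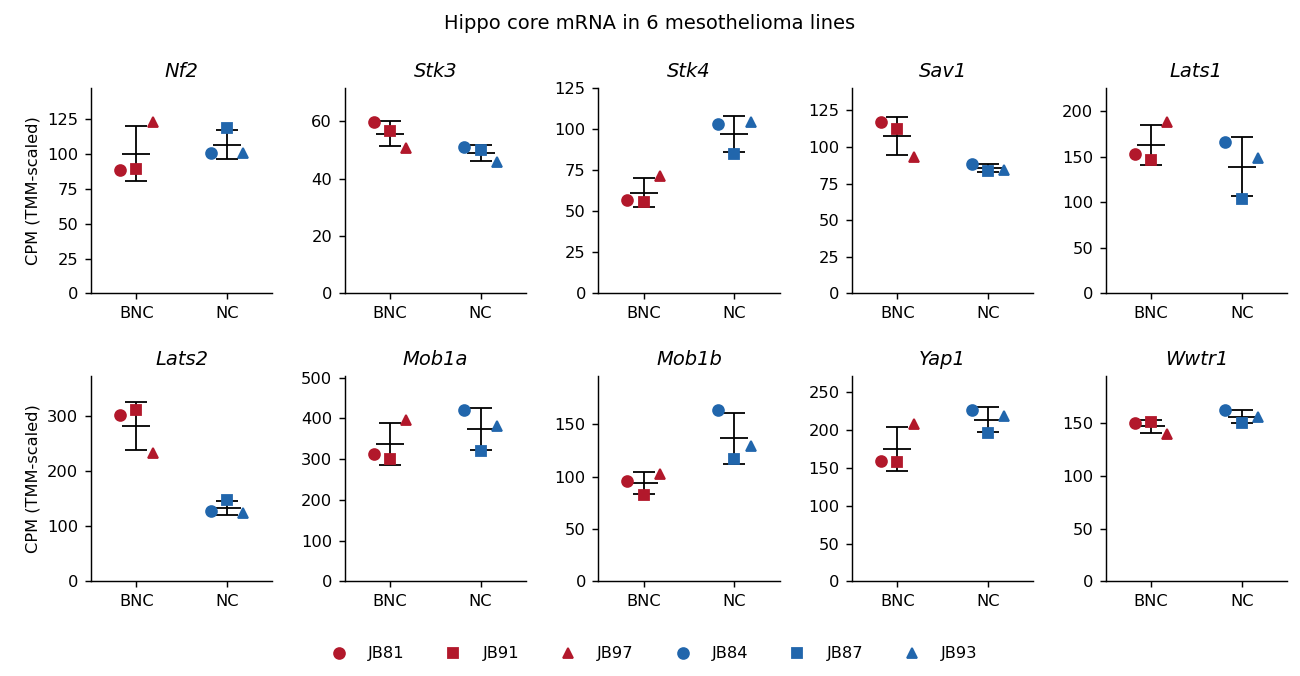
CPM (vertical axes from 0, TMM-scaled over the 6 lines) of the 10 members in each BNC line (red) and NC line (blue), with the mean and SD of each genotype (n = 3). Lats2 sits at 233 to 311 CPM in BNC lines and 123 to 148 CPM in NC lines, Stk4 at 55.6 to 71.7 CPM and 84.8 to 104 CPM.

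Among the upstream kinases Stk4 was lower in BNC lines, and Stk3 did not pass the test. Stk4, which encodes MST1 (chromosome 2, 164070322 to 164155524, plus strand), had 56.9, 55.6, and 71.7 CPM in JB81, JB91, and JB97, and 103, 84.8, and 104 CPM in JB84, JB87, and JB93. No BNC line reached the lowest NC line, as in 21.4% of all genes tested. The mean was 61.4 ± 8.97 CPM (SD, n = 3) in BNC and 97.4 ± 10.96 CPM (SD, n = 3) in NC lines. The fitted log2 difference was -0.67, with a standard error of 0.17 (edgeR, adjusted p = 0.0497). This call lies at the threshold. It was lost with close pairs summed (log2 fold change -0.56, adjusted p = 0.554), when any of JB81, JB91, JB84, or JB93 was left out, and with at least 10 counts required in every line (adjusted p = 0.056). DESeq2 gave an adjusted p of 0.0121.

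Stk3, which encodes MST2 (chromosome 15, 34875496 to 35178921, minus strand), had 59.7, 56.7, and 50.9 CPM in JB81, JB91, and JB97 and 51.2, 50.0, and 45.9 CPM in JB84, JB87, and JB93. The groups overlapped, and the log2 difference of 0.19, with a standard error of 0.13, did not pass (adjusted p = 0.347). Sav1, the scaffold that holds the MST kinases to LATS (chromosome 12, 69965012 to 69987002, minus strand), had 117, 112, and 92.9 CPM in BNC lines and 88.7, 83.6, and 84.5 CPM in NC lines. The lowest BNC line was above the highest NC line, as in 20.1% of all genes, but the log2 difference of 0.33, with a standard error of 0.14, did not pass (adjusted p = 0.154). Of the 65-base windows of the Sav1 transcripts, the read length here, 24.5% also occur in Atl1 on the opposite strand. The strand setting of the counting is not given in the sources used here, so some reads of the pair may have been lost or exchanged.

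At the next step, Lats2 carried the largest difference of the 10 genes. Lats2, a kinase that phosphorylates YAP and TAZ and is itself a known YAP target gene (chromosome 14, 57689662 to 57758388, minus strand), had 303, 311, and 233 CPM in JB81, JB91, and JB97. The NC lines JB84, JB87, and JB93 had 128, 148, and 123 CPM. The groups stood apart, at 283 ± 43.1 CPM (SD, n = 3) and 133 ± 13.3 CPM (SD, n = 3), and the fitted change was 2.12-fold, or 1.08 on the log2 scale with a standard error of 0.17 (edgeR, adjusted p = 0.0183). DESeq2 gave an adjusted p of 1.44e-06.

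The size of the Lats2 difference kept between 0.95 and 1.21 on the log2 scale over 15 alternative fits, but its call did not hold in all of them. With the close pairs summed the log2 fold change was 0.98 (adjusted p = 0.344, edgeR), a setting in which 0 of 12859 genes were called. DESeq2 on the summed pairs called 942 of 13918 genes at an adjusted p under 0.05, and gave Lats2 an adjusted p of 0.144. Leaving out JB81, JB91, JB84, or JB93 gave adjusted p-values of 0.102, 0.103, 0.094, and 0.0955. Library names carry a number, of unstated meaning, that splits the lines into JB81, JB84, and JB87 and into JB91, JB97, and JB93, and within these sets the log2 difference was 1.13 and 1.14. With that number as a covariate the adjusted p was 0.0541.

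Lats2 was among the genes that the study listed from these same lines, so its direction is not independent evidence. Of its 65-base windows, 40.8% also lie in Gm49361, an annotated gene on the same strand that has no row in the count table. The summed mesothelial markers also moved with the genotype, from 2140 CPM or more in NC lines to 676 CPM or less in BNC lines. Msln made up the largest part of the sum in NC lines, while the lines of the genotypes overlapped for Wt1, Upk3b, and Lrrn4. The part of these markers in the Lats2 and Stk4 differences was not tested. The fibroblast markers, mostly Col1a1, summed to 3640 to 6580 CPM in BNC lines and 678 to 3710 CPM in NC lines, and the endothelial markers to 1.44 to 7.77 CPM and 49.1 to 57.5 CPM. The endothelial difference was that of Kdr, since Pecam1, Cdh5, and Tek were at most at 1.28 CPM in any line. The leukocyte markers summed to at most 6.37 CPM in any line.

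Lats1 (chromosome 10, 7681214 to 7716460, plus strand), the paralog of Lats2, did not separate the genotypes. It had 153, 147, and 188 CPM in JB81, JB91, and JB97 and 166, 104, and 149 CPM in JB84, JB87, and JB93, with JB97 highest and JB87 lowest (log2 fold change 0.22, SE 0.22, edgeR adjusted p = 0.478).

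The MOB1 proteins bind and activate the LATS kinases. Mob1a (chromosome 6, 83326016 to 83343776, plus strand) had 313, 300, and 395 CPM in BNC lines and 420, 319, and 381 CPM in NC lines, which overlapped (log2 fold change -0.15, SE 0.18, edgeR adjusted p = 0.559). Mob1b (chromosome 5, 88720855 to 88764220, plus strand) had 96.1, 82.2, and 103 CPM in JB81, JB91, and JB97 and 164, 117, and 130 CPM in JB84, JB87, and JB93. The groups stood apart, but at a log2 difference of -0.54 and a standard error of 0.18 the adjusted p was 0.0904. The 2 genes encode near-identical proteins, and reads could in principle be shared. Their coding sequences, of 648 bases each, differ at 132 positions, and the longest identical run is 20 bases, shorter than a read. The first 66 coding bases are shown for this reason, with capitals at the 13 positions that differ between the paralogs.

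Mob1a: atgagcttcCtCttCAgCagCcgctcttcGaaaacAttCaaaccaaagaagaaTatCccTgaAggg
Mob1b: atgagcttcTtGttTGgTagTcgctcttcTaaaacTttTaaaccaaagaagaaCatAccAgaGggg

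Neither coactivator at the end of the cascade passed the test. Yap1 (chromosome 9, 7931999 to 8004596, minus strand) had 160, 158, and 209 CPM in BNC lines and 226, 196, and 219 CPM in NC lines, with JB97 inside the range of the NC lines (log2 fold change -0.29, SE 0.17, edgeR adjusted p = 0.257). Wwtr1, which encodes TAZ (chromosome 3, 57455649 to 57575910, minus strand), varied least over the lines, with 150, 151, and 140 CPM against 163, 150, and 156 CPM (log2 fold change -0.09, SE 0.12, edgeR adjusted p = 0.621).

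**Figure D2:**
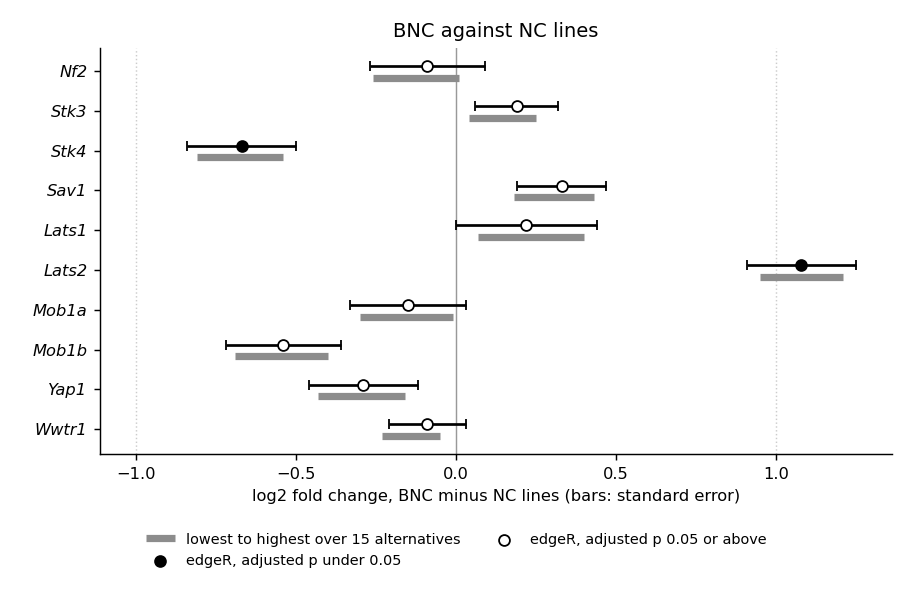
Log2 fold change of BNC minus NC lines for each member from edgeR (circles, with standard error; filled where the adjusted p was under 0.05), above the range over 15 alternative fits (gray bars). Lats2 lies at 1.08 and Stk4 at -0.67, and the other members between -0.54 and 0.33.

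Several steps of the core are served by a pair of genes, and the ratio within a pair does not depend on scaling between libraries. The log2 ratio of Stk3 to Stk4, per kb of exon, was 0.01, -0.03, and -0.56 in JB81, JB91, and JB97, and -1.07, -0.82, and -1.25 in JB84, JB87, and JB93. All BNC values were above all NC values, and the means differed by 0.85. The exact permutation p was 0.1 (two-sided), the smallest that 3 lines against 3 can give, and 0.2 after adjustment over the 4 ratios tested. The log2 ratio of Mob1a to Mob1b was likewise higher in every BNC line, at 3.35, 3.51, and 3.59 against 3.01, 3.10, and 3.21 (exact permutation p = 0.1, adjusted p = 0.2).

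The Lats1 to Lats2 ratio had lower values in BNC lines, at -1.05, -1.15, and -0.38 against 0.31, -0.58, and 0.20 on the log2 scale. JB87 lay among the BNC lines here (difference -0.83, exact permutation p = 0.2, adjusted p = 0.267). The Yap1 to Wwtr1 ratio was -0.87, -0.89, and -0.38 in BNC lines and -0.48, -0.57, and -0.46 in NC lines (exact permutation p = 0.4). The exact test could not reach 0.05 for any ratio with 3 lines against 3, and it counted the lines of a close pair as separate. With close pairs summed the differences were 0.71 (Stk3 to Stk4), 0.4 (Mob1a to Mob1b), -0.57 (Lats1 to Lats2), and -0.11 (Yap1 to Wwtr1).

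**Figure D3:**
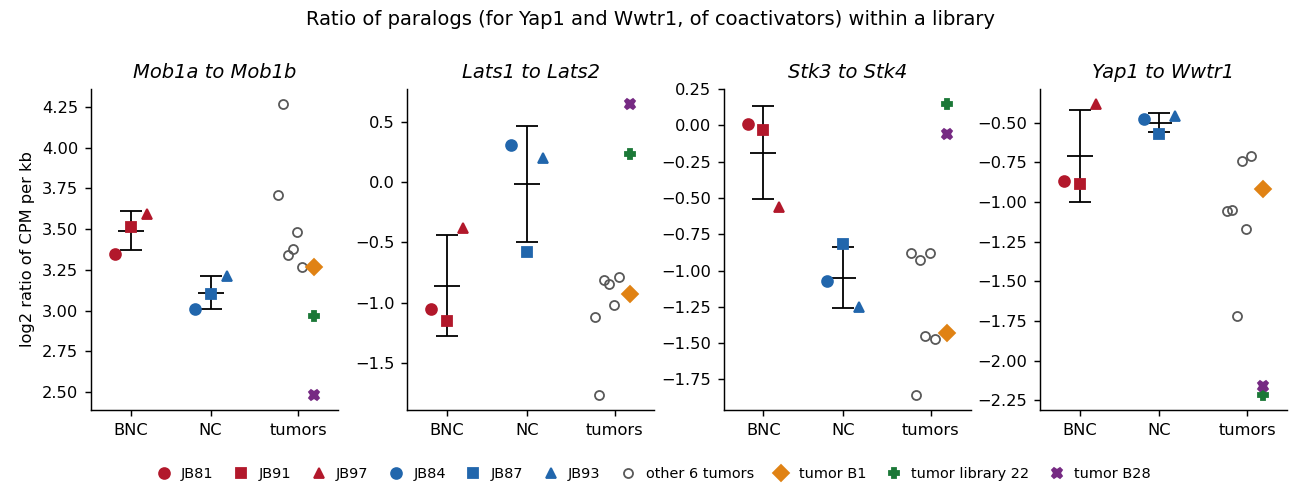
Log2 ratio of CPM per kb for 4 gene pairs in each line (mean and SD of each genotype, n = 3) and in each tumor. The Stk3 to Stk4 and Mob1a to Mob1b ratios are higher in all 3 BNC lines than in the NC lines, and tumors B28 and library 22 lie at one end of the Yap1 to Wwtr1 ratio.

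Compared per kb of exon, Mob1a was the most abundant member, at 60.5 to 81.3 CPM per kb in the 6 lines, above every other member in every line. Wwtr1 followed at 28.8 to 31.5, and Lats2, Yap1, Lats1, Sav1, Nf2, and Stk4 had medians of 26.3, 20.9, 19.8, 16.5, 13.8, and 12.7 CPM per kb. Below Mob1a, each member overlapped the next in this order over the 6 lines. Stk3 had a median of 7.97 and Mob1b of 6.97 CPM per kb. The order depends on the length used: the union of its annotated exons is 15033 bases long, and with its longest principal transcript of 2705 bases it had the rank 3 of the members, at 38.7 CPM per kb, while Yap1 moved from rank 4 to 2 and Wwtr1 from 2 to 6.

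Outside the core, 86 other genes of the pathway in 4 lists were examined, of which 82 were tested. Ajuba, Amotl2, and Ptpn14 are in more than 1 list. At an adjusted p under 0.05 in edgeR, 4 upstream regulators were lower in BNC lines, a kinase and a TEAD cofactor were higher, and 0 genes passed the stricter threshold. The share called was 5.78% of all genes in the higher and 8.45% in the lower direction, as above.

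Of the upstream regulators, 28 of 31 were tested, 4 were called lower and 0 higher, and the median log2 fold change was -0.26. Taok3, a kinase that can activate MST, had 15.6, 15.1, and 22.3 CPM in BNC lines and 44.8, 43.7, and 43.9 CPM in NC lines (log2 fold change -1.32, SE 0.20, edgeR adjusted p = 0.0161). Rassf5, an MST-binding protein, had 3.10, 2.65, and 5.15 CPM against 19.07, 9.89, and 20.99 CPM (log2 fold change -2.20, SE 0.42, edgeR adjusted p = 0.027). The other called genes, named after their values were seen, were Rassf3 at -2.46 (adjusted p = 0.0481) and the angiomotin gene Amotl1 at -1.32 (adjusted p = 0.036). DESeq2 called 11 genes of this list at an adjusted p under 0.05, where it called 27.8% of all genes.

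STRIPAK is the phosphatase complex that turns off the MST kinases. Of its 17 genes edgeR called 0 at an adjusted p under 0.05 (5 at an unadjusted p under 0.05, against 35.6% of all genes) and DESeq2 2, and the median log2 fold change was 0.02. The lines of the genotypes did not overlap for 5 genes that were higher and 4 that were lower in BNC lines, against 20.1% and 21.4% of all genes. Sike1, a member of the complex, had a log2 fold change of -0.56 (edgeR adjusted p = 0.0654). The kinase gene Stk26, named after its values were seen, had 0.0443, 0.0442, and 7.47 CPM in JB81, JB91, and JB97 and 52.5, 55.5, and 49.3 CPM in JB84, JB87, and JB93, which did not pass (edgeR adjusted p = 0.116). The list of adaptors and related kinases, with 14-3-3 proteins that retain phosphorylated YAP in the cytoplasm, had 1 of 21 genes called and a median of 0.01. That gene was Nuak1, an AMPK-related kinase, with 88.5, 88.4, and 141 CPM in BNC lines and 5.50, 26.5, and 5.31 CPM in NC lines (log2 fold change 3.10, SE 0.73, edgeR adjusted p = 0.0424). Stk38l, an NDR kinase related to LATS, came next at -1.90 (adjusted p = 0.0734).

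Of the TEAD factors and YAP target genes, 19 of 20 were tested, 1 was called higher and 0 lower. Their median log2 fold change was 0.51, against 0.00 over all genes, and 15 of the 19 had a value above 0. The lines of the genotypes did not overlap for 8 genes that were higher and 3 that were lower in BNC lines. The shares over all genes were 20.1% and 21.4%. The called gene was Vgll3, a TEAD cofactor, with 433, 414, and 319 CPM in BNC lines and 104, 148, and 98.9 CPM in NC lines (log2 fold change 1.73, SE 0.22, edgeR adjusted p = 0.0128). Arhgef17 had a log2 fold change of 1.12 (adjusted p = 0.0508), just short of the threshold. The best known readouts, named here after their values were seen, gave no call: Ccn1 was at 0.39 (adjusted p = 0.369), Ankrd1 at 0.78 (adjusted p = 0.289), and Ccn2 at 0.02 (adjusted p = 0.987). For Ankrd1 and Ccn1 the NC line JB87 (350 and 340 CPM) lay inside the range of the BNC lines (302 to 376 and 270 to 395 CPM). The close pair JB84 and JB93 had at most 112 and 194 CPM of these. Ccn2 split the BNC lines, with 152 CPM in JB81 and in JB91 and 1002 CPM in JB97, around the 282 to 711 CPM of the NC lines. DESeq2 called 7 genes of this list, against 27.8% of all genes. With close pairs summed edgeR called 0 in any of the 4 lists, as over all genes. DESeq2 on the summed pairs called 2 upstream genes, 1 adaptor or kinase, and 1 of the TEAD list, against 942 of 13918 genes.

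**Figure D4:**
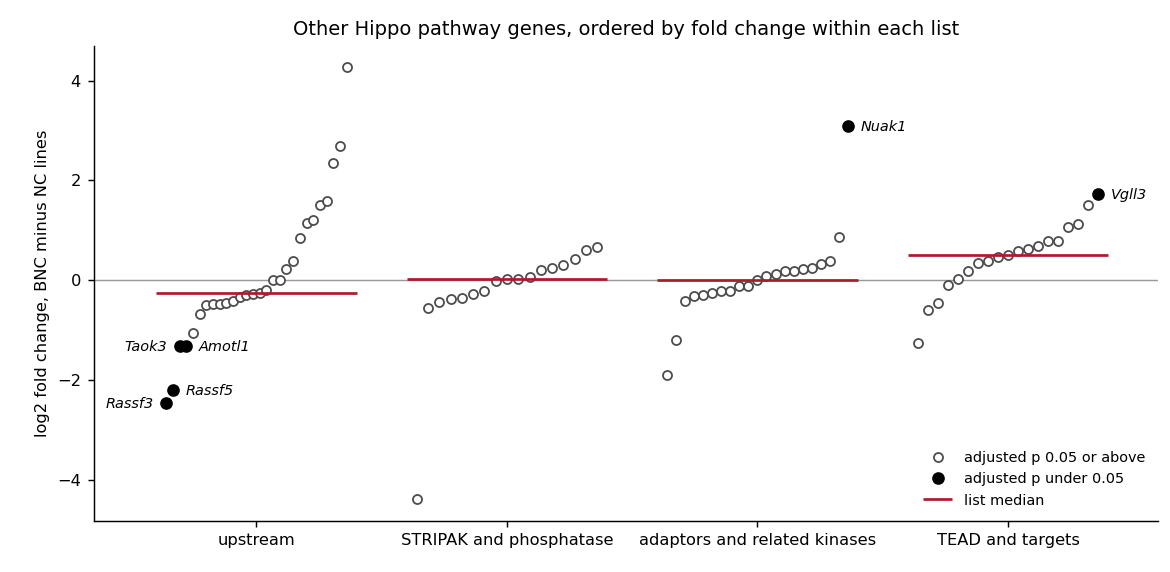
Log2 fold change of BNC minus NC lines (edgeR) for each tested gene of 4 Hippo pathway lists, ordered within each list, with the list median in red. Filled and named points had an adjusted p under 0.05: 4 upstream genes below 0, and Nuak1 and Vgll3 above 0.

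In whole tumors the members were read at lower levels than in the lines. The median over the 9 tumors was below the lowest line for all 10 members (CPM, TMM over all 15 libraries), as for 29.1% of all genes, and for each member 6 or more tumors lay below every line, as for 24.9% of all genes. The median over members of the log2 ratio of tumor to line medians was -1.10, against 0.09 over the 14511 genes with enough counts. The tumors are tissue rather than culture: their leukocyte markers summed to 560 to 1970 CPM and their muscle markers to 141 to 31200 CPM, against at most 6.37 and 4.42 CPM in the lines. In such bulk samples fewer tumor cells and less RNA per cell cannot be told apart, and the part of the other cells in these levels was not tested. The leading number of the library names, of unstated meaning, was the same for all 9 tumors and differed from those of the lines. The comparison of tumors with lines therefore cannot be separated from that number, and its part was not tested.

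Yap1 was the only member with every tumor (65.8 to 117 CPM, median 87.3) below every line (153 to 210 CPM), that is 10.0% of the members against 9.64% of all genes. Lats1 had a tumor median of 49.1 CPM (24.7 to 113) against 96.3 to 185 CPM in the lines. Lats2 ranged from 45.1 to 185 CPM in tumors with a median of 75.8, below the lowest line at 117 CPM. Its highest tumor was B14.

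Mob1a had a tumor median of 139 CPM (68.0 to 304) against 290 to 390 CPM in the lines, and Mob1b one of 41.9 CPM (22.2 to 131) against 79.6 to 152 CPM. For Stk3 the tumor median was 23.7 CPM (13.7 to 46.3) and the lines had 43.6 to 57.1 CPM. By the log2 ratio of tumor to line medians, the smallest differences were those of Sav1 (-0.22), with a tumor median of 74.5 CPM (40.7 to 102) against 77.5 to 112 CPM, and Nf2 (-0.50), with 66.8 CPM (48.4 to 116) against 84.5 to 121 CPM. Stk4 had a tumor median of 46.0 CPM (35.3 to 77.9), and the lines had 53.8 to 99.05 CPM. Tumor B1 was the lowest for 8 of the members. It had the smallest total count and a TMM factor of 0.476, 55.6% of its counts fell on 10 genes, and its Acta1, a skeletal muscle actin, stood at 19800 CPM. Without B1 the tumor medians were 71.3 CPM for Nf2 and 169 CPM for Mob1a.

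No member had every tumor above every line, as 16.5% of all genes had. Wwtr1 was the only member with any tumor above every line. It had 270 CPM in B28 and 201 CPM in library 22, against 138 to 151 CPM in the lines and 73.9 to 112 CPM in the other 7 tumors. The same 2 tumors, pointed out after their values were seen, had the highest Lats1 (113 and 70.4 CPM), Mob1b (131 and 88.0 CPM), and Stk3 (46.0 and 46.3 CPM) among tumors. Their Yap1 to Wwtr1 ratio was -2.16 and -2.22 on the log2 scale, against -1.72 to -0.71 in the other tumors, and their Lats1 to Lats2 ratio 0.65 and 0.23, against values of -0.79 or less. They also had the most Krt18 (443 and 512 CPM) and Pdgfra (530 and 202 CPM) and the least Msln (44.0 and 103 CPM) of the tumors. Among the other mesothelial markers, Upk3b (3.70 and 28.1 CPM), Lrrn4 (3.23 and 10.6 CPM), and Wt1 (41.2 and 43.7 CPM) were also lowest in these 2 tumors. For Wt1 the next tumor, B27, was close at 43.95 CPM. Krt19 was lowest in B27 (23.6 CPM) and Pdpn in B45 (126 CPM). The markers of a list thus did not all go the same way. Of the fibroblast markers, these 2 tumors had the least Dcn (180 and 604 CPM) and Lum (92.2 and 249 CPM). Their Col1a1 (1841 and 2579 CPM) lay within the range of the other tumors, and B14 had the most Krt8 (369 CPM). Whether these markers go with the Hippo genes was not tested.

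**Figure D5:**
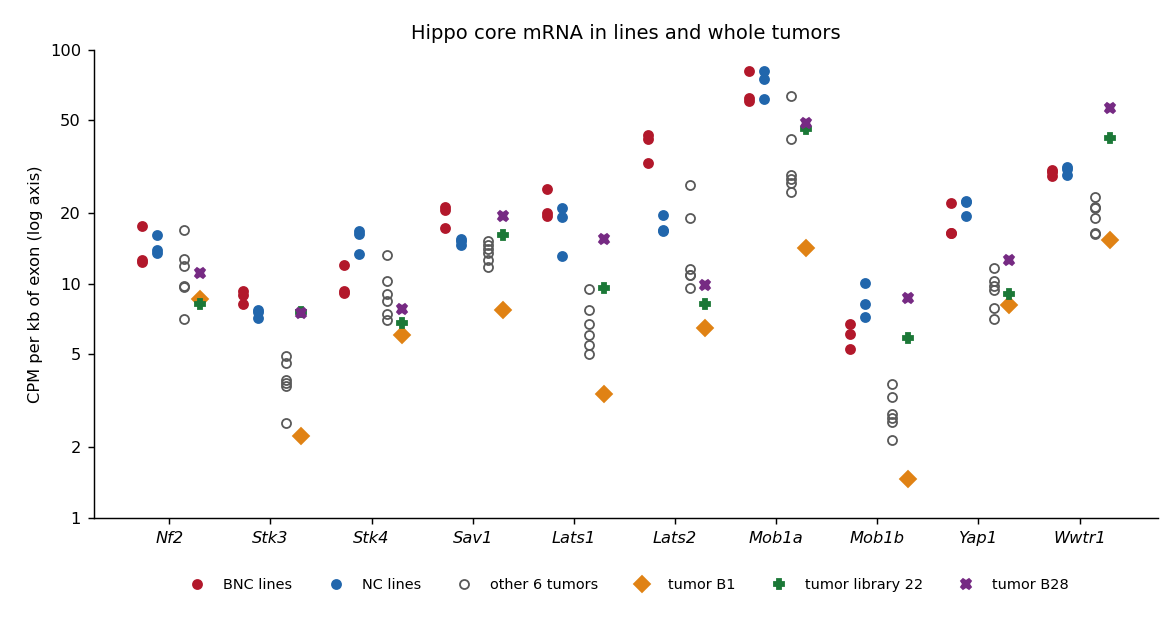
CPM per kb of exon (log axis) of each member in BNC lines (red), NC lines (blue), and 9 tumors, with B1, library 22, and B28 drawn apart. All 9 tumors lie below the lines for Yap1, and B28 and library 22 lie above the lines for Wwtr1, at 56.4 and 42.05 CPM per kb.

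Tumor DNA showed no recurrent gain or loss at these genes at the resolution of the bins. For 14 tumors the deposited log2 ratios over bins of 20000 bases were summarised as the median over the bins that overlap a gene. A pair of the 14 names shares a number of unstated meaning, so these tumors may not come from separate mice. The medians over tumors lay between -0.05 (Nf2) and 0.02 (Stk3, Sav1, and Mob1b), and single tumors between -0.32 and 0.15. The lowest value, -0.32, was that of Lats1 in 1 tumor, over 2 bins, and the bins within 1 Mb around Lats1 had medians between -0.05 and 0.02 in the 14 tumors. The single bin that holds Nf2 exon 2 ranged from -0.31 to 0.20 with a median of 0.01. The standard deviation between autosomal bins within a tumor was 0.15 to 0.227, and a bin is far longer than the deleted exon, so these values do not bear on the Nf2 deletion.

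The promoters were searched for a sequence feature that the choice of genes did not use. The letters GGAATG, the core of the TEAD binding motif, or CATTCC on the other strand, occur within 250 bases before to 50 after a start site in 5 of the 9 members with a promoter in the RefSeq table for GRCm38.p6 (55.6%), against 4481 of 27025 genes (16.6%). They were found for Lats2, Sav1, Mob1a, Yap1, and Wwtr1, and not for Nf2, Lats1, Stk4, or Mob1b. A match describes letters and not binding, and only Lats2 of these 5 was called between the lines. The matches are shown with 12 bases on either side, in the sense of the gene, with the motif in capitals, because Lats2, the member with the largest change, is among them. For Lats2 the match begins at base 5 from a listed start site inside the gene, whose outer 5′ end in GENCODE is at 57758388. The Lats2 stretch lies on chr14:57746102-57746131. That of Sav1 lies on chr12:69987091-69987120, that of Mob1a on chr6:83325818-83325847, that of Yap1 on chr9:8004720-8004749, and that of Wwtr1 on chr3:57576029-57576058. Only Mob1a is on the plus strand.

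Lats2: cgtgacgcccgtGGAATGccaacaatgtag
Sav1: cggctttcccagCATTCCcagcggcgcggg
Mob1a: tggccagaatagCATTCCtttaggagaaga
Yap1: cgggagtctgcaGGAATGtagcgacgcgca
Wwtr1: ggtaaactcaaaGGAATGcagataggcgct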

How the data were processed

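RNA of 6 mesothelioma lines and 9 tumors and DNA of 14 tumors were analysed. The authors deposited RNA data as counts, whole reads per Ensembl gene without normalization. Per the paper's methods and the submitters' processing notes, poly-A–enriched libraries were sequenced as 65-base single-end reads, mapped to mm10 with TopHat2 2.0.12, freed of reads with a mapping quality under 10 and of nonprimary alignments, and counted with HTSeq. The DNA values were deposited as log2 ratios of tumor over normal tail per bin of 20000 bases, made by the authors from BWA alignments with an adapted CopywriteR and corrected for GC content and mappability. Bins holding a placeholder were left out. Chromatin profiles were not used here.

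The genotype of each line was read from the sample names that head the study's gene list. The other 9 RNA columns were taken as the 9 tumor RNA samples of the labels. The members and lists were chosen with earlier results of these data known. The genes named are the 10 members, the 2 genes of each list with the smallest p, Bap1, and markers, and 1 gene that this rule names is not reported here. Other genes are named as chosen after their values were seen.

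Counts were tested in R 4.3.3 with edgeR 4.0.16 (TMM, filterByExpr with minimum count 10, glmQLFit and glmQLFTest, no covariates) over 12376 genes, with Benjamini-Hochberg adjustment. The standard error (SE) is the log2 fold change divided by the square root of F. Alternatives were DESeq2 1.42.0, the tool of the authors, library size only, other filters, a replicate block, the leading number of the library names as a covariate, close pairs summed, and each line left out. Summed pairs in DESeq2, values within lines that share that number, tumors without B1, and the principal transcript length were added after seeing the data. The fits were tested on simulated counts with 200 changed genes. Tumor and marker levels use TMM over 15 libraries. Exon lengths and positions are from GENCODE M21 on GRCm38 and promoters from RefSeq. Ratios were compared with scipy 1.17.1, and figures drawn with matplotlib 3.10.9.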

Additional observations from a re-analysis of the deposited data

How the results depend on the processing

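The count of members called at an adjusted p under 0.05, 2 in edgeR, was 2 with DESeq2 and with library size only. It was 1 (Lats2) with no filter and with at least 10 counts in every line, and 0 with close pairs summed (edgeR or DESeq2), with the number in the library names as a covariate, and with either replicate block. Leaving out 1 line gave 0 to 3. Over all genes, 1761 of 12376 passed this threshold in edgeR, 3931 of 14145 with DESeq2, and 1870 of 12376 with library size only. It was 1481 of 20589 genes with no filter and 1108 of 10705 with at least 10 counts. With the library-name number 272 of 12376 passed, and with the replicate blocks 0 and 464. In DESeq2 with close pairs summed 942 of 13918 passed. Without JB81, JB91, JB84, or JB93, 16, 15, 49, and 54 genes passed. Without JB97, 3305 of 12991 passed, and without JB87, 6800 of 13091. At the stricter threshold the count of 0 became 1 (Lats2) with DESeq2, and leaving out 1 line gave 0 to 1 (1 without JB97 and without JB87, in each of which the close pair made up the whole group). Over all genes, 2002 of 14145 passed the stricter threshold in DESeq2, 984 of 12991 without JB97, and 2574 of 13091 without JB87. Library size without TMM moved the median log2 fold change of all genes from 0.00 to -0.14.

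The Lats2 call was lost, at a log2 fold change of 0.98 with close pairs summed (1.01 in DESeq2), 1.14 with the library-name number, 1.03 with the replicate block, and 1.08 with JB97 numbered 3 in it. Leaving out 1 line gave 1.02 to 1.21. Stk4 was lost at -0.56 with pairs summed (-0.54 in DESeq2), -0.72 with that number, -0.61 and -0.67 with the replicate blocks, -0.66 with no filter, and -0.69 with at least 10 counts in every line. Without 1 line it was -0.79 to -0.58. The cause of these losses was not tested. The fits with summed pairs or without 1 line had fewer samples, and those without JB97 or JB87 kept the Lats2 and Stk4 calls. With JB97 numbered 3, the correlations between same-numbered lines of their deviations from the genotype mean were 0.101, -0.069, and -0.077. Because JB81 and JB91, and JB84 and JB93, were nearly identical, these values cannot show whether the replicate numbers pair the lines.

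Without 1 line Sav1 ranged from 0.28 to 0.43 and passed without JB97 (edgeR adjusted p = 0.0494), as did 3305 of 12991 genes. Mob1b ranged from -0.63 to -0.40 and passed without JB87 (edgeR adjusted p = 0.0265), as did 6800 of 13091 genes. Nf2 ranged from -0.26 to 0.01, turning from below to at or above 0 without JB81, JB91, or JB87, and was -0.31 among the lines that share the library-name number of JB81 and 0.07 among the others. No other member changed direction in any alternative.

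Of the upstream list DESeq2 called 11 genes, edgeR with summed pairs 0, and DESeq2 with summed pairs 2. STRIPAK counts were 2 with DESeq2 and 1 with library size only, those of adaptors 2 with DESeq2 and 0 with summed pairs (1 in DESeq2), and those of TEAD and targets 7 with DESeq2, 2 with library size only, and 0 with summed pairs (1 in DESeq2). The differences in paralog ratios and the tumor medians moved by less than their spread in all alternatives. Depth limits tumor B1 most, where a member had as few as 53 counts.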
